A study of Mus musculus with 23 samples.

Results

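The genes described here are 37 genes of the pancreatic acinar cell, followed in total RNA-seq of mouse mesenteric arteries. They were taken by symbol from the 39179 genes of the deposited table, and every symbol was found. They comprise 31 genes for digestive enzymes, granule proteins and their regulators, and 6 genes for the secreted Reg lectins. The 23 libraries came from male C57BL/6 mice, 10 to 12 weeks old, with 1 animal per library and no genetic change named in the labels. There were 6 libraries of mice infused with angiotensin II (Ang II) for 7 days, 6 of mice after sham surgery at 7 days, 5 of mice infused for 14 days and 6 of sham mice at 14 days. Ang II, a pressor peptide, was delivered at 1000 ng per kg per minute from an osmotic minipump under the skin. The arteries were dissected free of fat and veins, and no label names a step that would remove or measure pancreas.

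Acinar cells make up most of the exocrine pancreas and release digestive enzymes, largely as inactive precursors called zymogens, from granules into the duct. Trypsin, formed from trypsinogen in the gut, activates the other zymogens, and a trypsin inhibitor in the granule guards against early activation. The PTF1 complex, which contains PTF1A and RBPJL, and the factor BHLHA15 (MIST1) keep the enzyme genes on. Reg proteins are small secreted lectins of acinar and gut epithelial cells, and several of them are known to rise in injured or inflamed pancreas. In the mouse the pancreas is a diffuse gland that lies along the mesentery near the vessels studied here.

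The values are the authors' normalized gene values, on which 1 read of a library is worth a fixed amount, so whole reads could be recovered. The libraries held 4471038 to 21509283 recovered reads. The marker genes of the labelled tissue were high in every library. The values of 6 smooth muscle genes summed to 4819 to 8334 over the 4 groups, and those of 6 endothelial genes to 988 to 1399. All 37 acinar and Reg genes had reads, and all 37 passed the filter on low values (a value of at least 1 in at least 5 libraries), so markers of the pancreatic acinar cell were present in artery libraries of every group. Prss1 and Aqp8 were the lowest of them by mean value, with as few as 1 and 7 reads in a library. Reg3g fell to 4 reads. Values of the trypsinogens, elastases, amylases and Reg genes are uncertain, since reads of near-identical copies may be divided between them. Amy2b is annotated as an unprocessed pseudogene in GENCODE M21, exons of Ctrc and Cela2a overlap each other and Casp9, and those of Rbpjl and Ptf1a overlap Matn4 and Ptf1aos on the other strand. The strand setting of the counting is not given in the sources used here.

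The genes lie on 12 chromosomes, and 12 of them on chromosome 6 (GRCm38). The 6 Reg genes form a cluster there, from Reg3b, which starts at 78370657, to Reg3g, which ends at 78468872. The 5 trypsinogen genes lie between 41302269 and 41525079 on the same chromosome. RefSeq promoters of build GRCm38.p6, covering 250 bases before to 50 bases after the start, were given for 32 of the 37 genes. The others were Ctrc, Clps, Zg16, Spink3 and Try5. The letters CACCTG, an E-box of the kind PTF1 binds, were present on either strand in promoters of 19 of the 32 genes (59.4%). Over all 26994 genes with a promoter given the share was 22.6%, where a match in any promoter of a gene counted. TTTCCC, the TC-box that PTF1 binds beside an E-box, was present in 13 (40.6%), against 27.9% of all genes. A CANNTG within 25 bases of TTTCCC was present in 7 (21.9%), against 6.43% of all, and each such match also counts as a match of TTTCCC. The E-box CATATG, known for BHLHA15, was found in Reg3g only, 1 of 32 (3.12%), against 4.49% of all. TTCNNNGAA, a STAT-type motif added after the values were seen, was found in 4 (12.5%), against 9.55% of all, and can overlap TTTCCC. A match describes letters in these windows and is not a binding site. The 250 bases before the start are shown for 2 enzyme genes whose promoters hold the E-box and TC-box pair, and for the neighbouring Reg3a and Reg3d, whose levels behaved differently below. Capitals mark matches of CACCTG, of TTTCCC, of TTCNNNGAA and of a CANNTG within 25 bases of TTTCCC, on either strand. They are Cel at chr2:28563404-28563653 on the minus strand, Ctrb1 at chr8:111691011-111691260 on the minus strand, Reg3d at chr6:78378866-78379115 on the minus strand and Reg3a at chr6:78380459-78380708 on the plus strand.
Cel: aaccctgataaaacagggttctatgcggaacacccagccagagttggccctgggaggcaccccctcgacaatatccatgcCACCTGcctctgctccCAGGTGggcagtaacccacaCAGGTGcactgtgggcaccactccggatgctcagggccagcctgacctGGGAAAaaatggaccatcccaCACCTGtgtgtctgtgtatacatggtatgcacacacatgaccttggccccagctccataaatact
Ctrb1: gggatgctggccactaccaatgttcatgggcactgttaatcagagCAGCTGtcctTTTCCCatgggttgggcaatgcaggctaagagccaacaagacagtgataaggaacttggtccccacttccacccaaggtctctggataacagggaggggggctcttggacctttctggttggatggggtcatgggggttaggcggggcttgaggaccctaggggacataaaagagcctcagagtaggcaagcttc
Reg3d: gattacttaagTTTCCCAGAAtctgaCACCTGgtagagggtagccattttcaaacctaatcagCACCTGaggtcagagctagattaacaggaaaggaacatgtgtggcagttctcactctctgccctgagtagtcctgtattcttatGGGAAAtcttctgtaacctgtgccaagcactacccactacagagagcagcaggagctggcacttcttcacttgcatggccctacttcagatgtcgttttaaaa
Reg3a: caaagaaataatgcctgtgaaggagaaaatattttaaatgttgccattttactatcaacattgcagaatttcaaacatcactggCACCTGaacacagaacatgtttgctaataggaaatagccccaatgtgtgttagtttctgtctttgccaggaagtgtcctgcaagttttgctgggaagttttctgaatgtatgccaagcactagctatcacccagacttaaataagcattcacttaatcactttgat
Cel held 4 CACCTG letters in either direction and the pair, Ctrb1 the pair with no CACCTG, Reg3d 2 CACCTG, the pair and a STAT-type match that overlaps TTTCCC, and Reg3a a single CACCTG.

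A large share of all reads in these artery libraries came from the 37 genes. They took 8.29% to 17.02% of the recovered reads in Ang II libraries at 7 days, with a median of 16.6%, and 9.62% to 20.8% in sham libraries at 7 days, with a median of 17.04%. At 14 days the Ang II libraries gave 10.75%, 14.0%, 9.19%, 9.72% and 8.19%, against 10.67% to 22.1% with a median of 17.3% in the sham libraries. Of the 5 infused libraries at 14 days, 3 lay below every sham library of that time, and the groups overlapped at both times. The Wilson 95% interval of a library's share reached at most 0.0342 percentage points to each side, for counting error only. The 6 Reg genes supplied 2.01% to 3.27% of the genes' reads in Ang II libraries at 14 days and 1.79% to 6.68% in sham libraries at 14 days. A transcript listed as AY036118 took 0.0788% to 13.2% of reads in Ang II and 0.113% to 36.2% in sham libraries at 7 days. Without its reads the 37 genes took 8.70% to 19.6% and 15.1% to 26.1% there, with medians of 17.3% and 18.8%. At 14 days they took 8.20% to 14.0% and 11.8% to 22.3% without it. Since these were bulk libraries, fewer acinar cells and less RNA per acinar cell cannot be told apart.

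**Figure D1:**
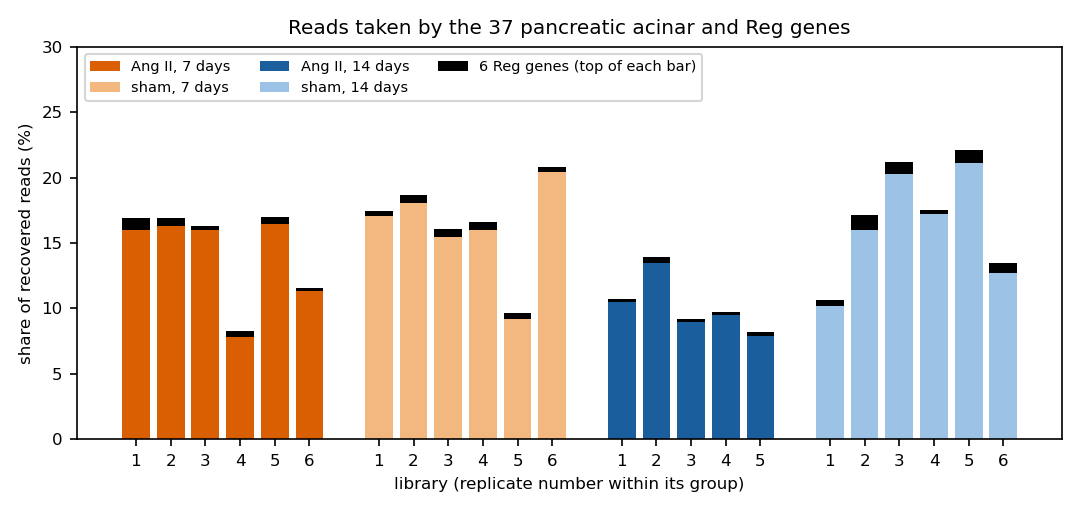
Share of recovered reads (%) taken by the 37 genes in each of the 23 libraries, by group, with the 6 Reg genes as the black top of each bar. Shares run from 8.19% to 22.1%, and the 14-day Ang II libraries lie between 8.19% and 14.0%.

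Levels of different genes were compared as values per kilobase of exon, as means over the 12 sham libraries. The highest were Prss2 at 19270.4 ± 5045 (SD, n = 12), Ctrb1 at 15402 ± 3978 and Pnlip at 12316 ± 2867. Neighbours in this order differed by less than the larger of their SDs. Try4 followed at 9065 ± 2501 and the colipase gene Clps at 8065 ± 2232 on the same per-kilobase scale. The transcription factor genes were far lower, at 10.3 ± 2.92 for Bhlha15, 8.61 ± 3.29 for Rbpjl and 6.25 ± 3.10 for Ptf1a. The lowest were Reg3g at 3.47 ± 3.89, Prss1 at 2.59 ± 3.39 and the water channel gene Aqp8 at 2.12 ± 0.682, again per kilobase and with overlapping SDs. Reg1 stood highest of the Reg genes at 5397 ± 1351, and Reg3a, at 72.8 ± 139.7, had an SD above its mean.

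The enzyme genes moved up and down together from library to library, whatever the group. Over the 23 libraries the SD of the log2 level was 0.57 at the median of the 30 enzyme, granule and regulator genes other than Pnlip. The SD of the log2 ratio to Pnlip, pancreatic lipase, in the same libraries was 0.27 at the median and lay between 0.16 (Cpb1) and 0.98 (Prss1). The ratio had the smaller SD for all 30 of them. A smaller SD of the ratio can be reached only by a gene whose own level varies, so the count was not set against that of other genes. These SDs include the differences between groups. With group means removed, the SD went from 0.45 for the level to 0.14 for the ratio in Cpb1. In Gp2 it went from 0.38 to 0.31, and in Aqp8 it rose from 0.38 to 0.47. These SDs describe the same 23 libraries that share their depth and normalization, and no test was made of them. The sets of genes with the tightest ratio were the procarboxypeptidases, with a median of 0.17, and the chymotrypsinogens and elastases, with 0.22. The transcription factor genes were looser, with a median of 0.42. Reads of some genes were few, down to 1 for Prss1, 7 for Aqp8 and 13 for Ptf1a in a library. The part of counting error in their SDs was not tested.

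The library-to-library pattern was broadly common, but some genes took a smaller part relative to Pnlip in the 14-day Ang II libraries; these were picked out after their values were seen and were not tested. The value of Clps was 11.04% to 14.9% of that of Pnlip in Ang II libraries at 14 days and 15.6% to 18.3% in sham libraries at 14 days. Spink3 stood at 0.817% to 1.36% of Pnlip in those Ang II libraries and at 1.38% to 1.69% in the sham libraries. Zg16 stood at 9.11% to 12.1% in the Ang II libraries and 12.4% to 15.4% in the sham libraries. In these 3 of the 36 genes other than Pnlip every infused library lay below every sham library in this ratio at 14 days, and in 0 every infused library lay above. Over all 14895 genes tested other than Pnlip the shares were 0.0201% below, which is these 3 genes, and 14.2% above. Pnlip itself was lower in the infused libraries, which moves the ratio of any gene that did not fall with it upwards. For Cpa1 they overlapped, at 47.5% to 51.9% in Ang II libraries and 43.3% to 48.5% in sham libraries.

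**Figure D2:**
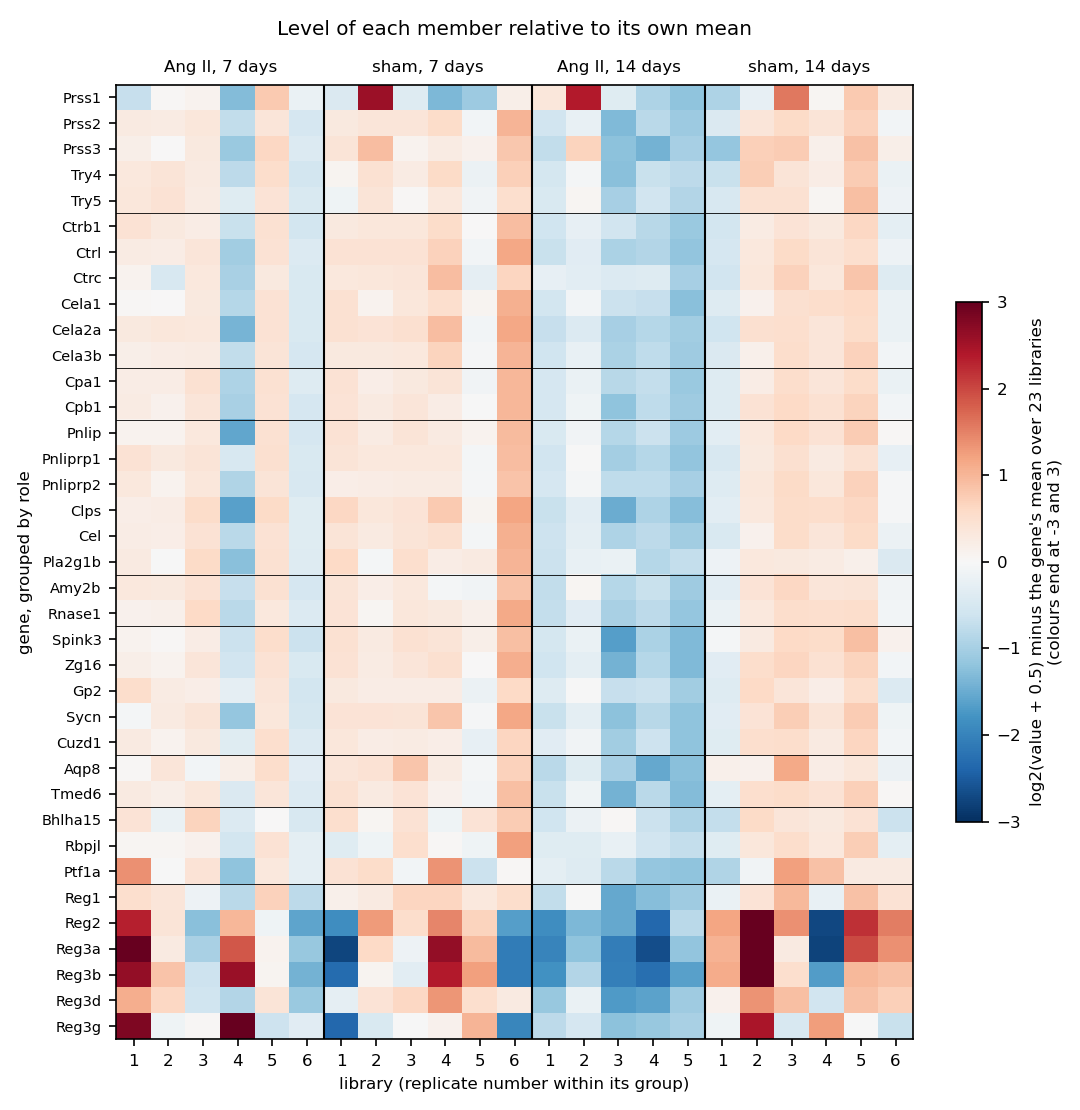
Level of each gene (rows, by role) in each library (columns, by group) as log2(value + 0.5) minus the gene's mean over 23 libraries. Enzyme rows share 1 pattern of light and dark columns, the 14-day Ang II columns are low, and Reg2, Reg3a, Reg3b and Reg3g show a pattern of their own.

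The 6 Reg genes fell into separate patterns. Reg1 kept nearest the enzymes, with an SD of the log2 ratio to Pnlip of 0.39, against 0.27 at the median of the 30 genes above. Reg3d was looser, at 0.68, against 0.93 for its own level. With group means removed these were 0.66 and 0.69, so the ratio narrowed Reg3d little within groups. Reg1 and Reg3d kept near each other, with an SD of their log2 ratio of 0.38. Reg2, Reg3a and Reg3b had SDs of log2 level of 1.69, 2.04 and 1.79, and the ratio to Pnlip removed little or none of this, leaving 1.69, 2.07 and 1.85. Among themselves these genes kept closer ratios, with an SD of 0.52 for Reg3a to Reg3b, 0.67 for Reg2 to Reg3a and 0.75 for Reg2 to Reg3b. Reg3g, an antibacterial lectin of the gut, followed neither set, with an SD of its log2 ratio of 1.19 to 1.61 to the other Reg genes. Reg3a and Reg3d start next to each other on opposite strands, yet their ratio had an SD of 1.49.

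A few libraries stood high or low for several of these genes. Reg3b, also known as pancreatitis-associated protein, had its highest values in sham replicate 2 at 14 days (1132), Ang II replicate 1 at 7 days (508), Ang II replicate 4 at 7 days (495) and sham replicate 4 at 7 days (429). Its lowest were in sham replicate 1 at 7 days (16.1), Ang II replicate 4 at 14 days (16.6) and sham replicate 6 at 7 days (18.7). At 7 days the high libraries were of both infused and sham mice, and the lowest were of sham mice. Ang II replicate 4 at 7 days had the lowest Pnlip value of all (7014) while its Reg3b value was among the 4 highest and its Reg3g value (101) was the highest. Reg2 and Reg3a were likewise highest in sham replicate 2 at 14 days (5763 and 417) and second in Ang II replicate 1 at 7 days (3257 and 128). Both were lowest in sham replicate 4 at 14 days, at 97.9 for Reg2 and 1.67 for Reg3a.

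**Figure D3:**
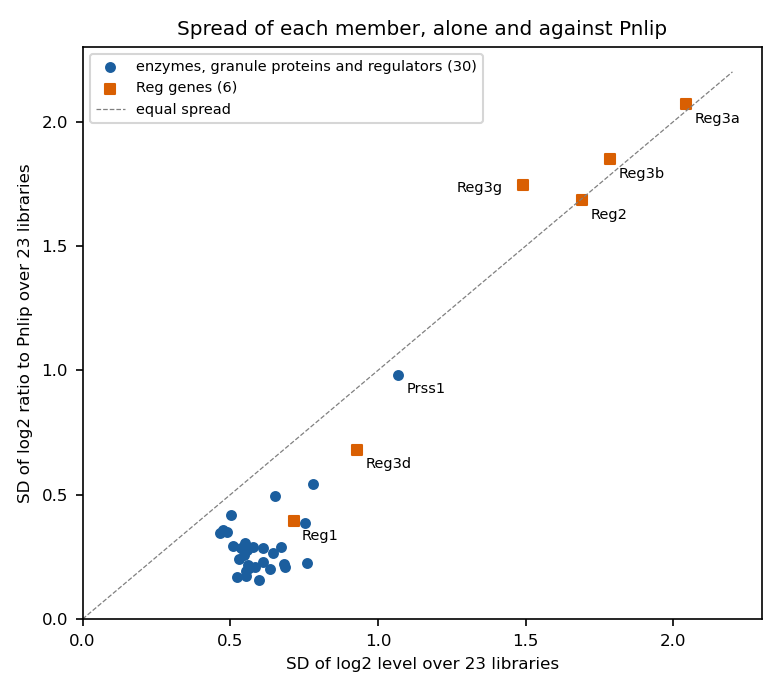
SD of the log2 level over 23 libraries (horizontal) against SD of the log2 ratio to Pnlip (vertical) for the 30 enzyme, granule and regulator genes and the 6 Reg genes. All 30 blue points lie under the line of equal spread, whereas Reg3a, Reg3b and Reg3g lie above it.

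After 14 days of Ang II most of the enzyme and granule genes were lower than in sham mice. Of the 37 genes, 23 were called lower and 0 higher by limma with Benjamini-Hochberg adjustment over all 14896 genes tested, at an adjusted p under 0.05. Over all genes limma called 6.06%, 2.01% lower and 4.04% higher. On recovered reads edgeR called 29 of the 37 lower, with 358 lower and 883 higher of all 14896 genes. DESeq2 called 32 of the 37 lower, with 766 lower and 1029 higher of all 14896. The log2 fold change, Ang II over sham, was negative for all 37 genes, except that Prss1 was positive by edgeR and DESeq2, and had a median of -0.98, against 0.03 over all genes tested. The 23 called genes had log2 fold changes of -1.71 to -0.78 and adjusted p of 0.0020 to 0.049 by limma. In 3 of the 37 genes every infused library lay below every sham library, a state found in 1.29% of all tested genes; these were Spink3, Rnase1 and Aqp8. In 0 of the 37 did every infused library lie above every sham library, against 2.36% of all tested genes.

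The count at 14 days depended on single libraries and on the animal numbers. Without Ang II replicate 3, 4 or 5 it was 6, 9 or 9, and without sham replicate 2, 3, 4 or 5 it was 15, 10, 14 or 15. Genes called lower over all 14896 went from 300 to 76, 116 or 124, and to 151, 143, 149 or 218, in that order. The median log2 fold change of the 37 genes stayed between -0.93 and -0.87 in these fits. Animal numbers begin with 26, 27, 28 or 30, and at 14 days only those beginning with 26 hold both groups, with 3 infused and 4 sham mice. Within them 36 of the 37 genes were negative, with a median log2 fold change of -0.78. Limma called 0 of the 37 there and 0 of all 14896 genes. With the number series as a term in the fit limma called 0 of the 37. It called 14 genes higher and 2 lower of all 14896. That fit takes its 14-day difference from the same mice numbered 26, with the same median of -0.78, so it is not a separate result. The infused mice numbered 30 and the sham mice numbered 27 and 28 have no counterpart, so number series and group cannot be told apart for them. The 14-day Ang II libraries were also deeper, at 15507654 to 21509283 reads, against 8807407 to 18004347 in the sham libraries. With depth as a term 13 of the 37 genes were called lower, and 221 of all 14896. The transcript AY036118 took 0.0431% to 0.934% of reads in those Ang II libraries and 0.799% to 9.35% in the sham libraries. Scaling without it and without the 37 genes left 20 of the 37 called lower, and 226 of all 14896.

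**Figure D4:**
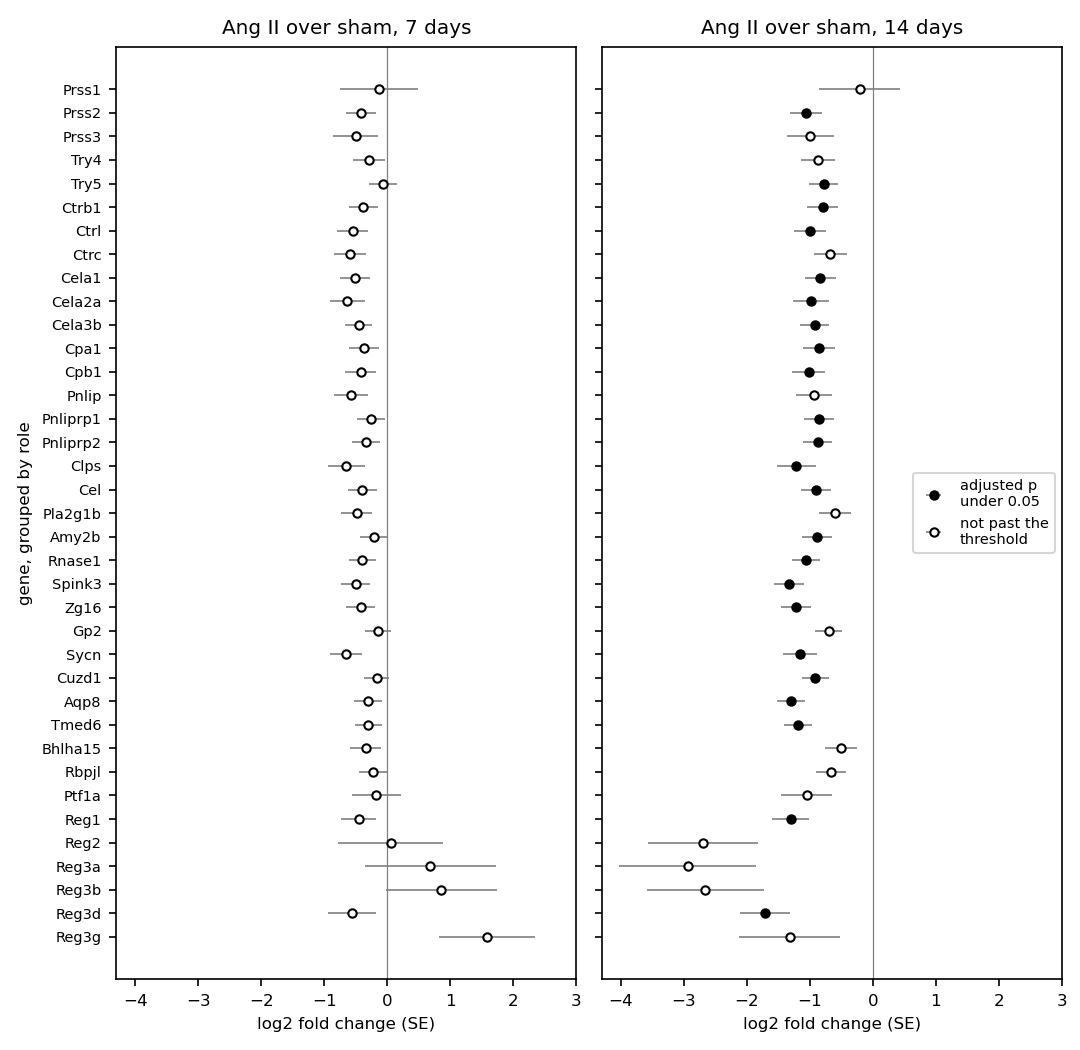
Log2 fold change of each gene, Ang II over sham, at 7 days (left) and 14 days (right), with bars of 1 SE from limma and filled points for an adjusted p under 0.05. At 7 days 0 points are filled, and at 14 days all 37 lie below 0 and 23 are filled.

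Among the trypsinogens 2 of 5 were called lower at 14 days. Prss2, the most abundant of them per length, had values of 8083, 10365, 4837, 6831 and 5618 in Ang II libraries and 8932 to 19486 with a median of 15721 in sham libraries. Of the infused libraries only replicate 2 reached into the sham range. Its log2 fold change was -1.06 ± 0.25 (SE; limma adjusted p = 0.016), and that of Try5 was -0.78 ± 0.23 (limma adjusted p = 0.047). Try4 (-0.87 ± 0.27, limma adjusted p = 0.055) and Prss3 (-0.99 ± 0.38, limma adjusted p = 0.11) were not called. Prss1 had values of 1.72, 8.59, 0.853, 0.415 and 0.263 in Ang II libraries and 0.417 to 4.76 with a median of 1.47 in sham libraries, a full overlap, and its log2 fold change of -0.21 ± 0.65 was not called (limma adjusted p = 0.87). The sign for Prss1 turned to 0.66 with the animal number series as a term.

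Of the chymotrypsinogens and elastases 5 of 6 were called lower, and both procarboxypeptidases were. Ctrl, a chymotrypsin-like protease, had values of 2948, 3696, 2421, 2535 and 2050 in Ang II libraries, against 3302 to 7000 with a median of 5986 in sham libraries. Replicate 2 again was the only infused library inside the sham range. The log2 fold change was -0.996 ± 0.26 for Ctrl (limma adjusted p = 0.023), -0.98 ± 0.29 for Cela2a (0.045), -0.92 ± 0.23 for Cela3b (0.021), -0.83 ± 0.24 for Cela1 (0.044) and -0.80 ± 0.24 for Ctrb1 (0.049). Cela1, Cela2a and Cela3b encode elastases. Ctrc, chymotrypsin C, was not called (-0.67 ± 0.27, limma adjusted p = 0.12). Cpb1, whose enzyme removes basic residues from the end of peptides, had values of 8930, 11500, 5468, 7437 and 5969 in Ang II libraries, against 9665 to 20155 with a median of 17241 in sham libraries. Its log2 fold change was -1.02 ± 0.26 (limma adjusted p = 0.022) and that of Cpa1 was -0.85 ± 0.25 (0.043).

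Fat digestion was represented by 6 genes, of which 4 were called lower. Clps, the colipase that anchors lipase to fat droplets, had values of 2237, 2859, 1252, 1852 and 1453 in Ang II libraries, against 2842 to 5439 with a median of 4786 in sham libraries. Its groups overlapped by a single infused library, replicate 2, and the log2 fold change was -1.22 ± 0.31 (limma adjusted p = 0.024). Cel, which splits cholesterol esters, gave -0.90 ± 0.24 (0.028), and the lipase-related Pnliprp1 and Pnliprp2 gave -0.86 ± 0.24 (0.033) and -0.87 ± 0.23 (0.027). Pnlip itself had values of 15047, 19184, 11340, 13270 and 9745 in Ang II libraries, against 16627 to 34883 with a median of 26876 in sham libraries. Infused replicate 2 alone lay inside the sham range, and the log2 fold change of Pnlip, -0.93 ± 0.29, missed the threshold (limma adjusted p = 0.052; edgeR 0.041). Pla2g1b, a secreted phospholipase, was not called either (-0.60 ± 0.26, limma adjusted p = 0.15).

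Amylase and ribonuclease genes were both called lower. Rnase1 had values of 1592, 2085, 1348, 1523 and 1175 in Ang II libraries and 2294 to 3816 with a median of 3516 in sham libraries. The groups of Rnase1 did not overlap, and its log2 fold change was -1.06 ± 0.23 (limma adjusted p = 0.0087). Amy2b gave -0.88 ± 0.23 (limma adjusted p = 0.028).

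Of the granule proteins and the trypsin inhibitor 4 of 5 were called lower. Spink3, the inhibitor that blocks early trypsin, had values of 204, 256, 92.6, 153 and 117 in Ang II libraries and 280.3 to 551 with a median of 392 in sham libraries. The groups of Spink3 did not overlap and its log2 fold change was -1.33 ± 0.24 (limma adjusted p = 0.0037). Zg16, a lectin of the granule, had values of 1820, 2237, 1033, 1513 and 1107 in Ang II libraries, against 2172 to 4399 with a median of 3860 in sham libraries. Only infused replicate 2 reached the sham range, and the log2 fold change was -1.21 ± 0.24 (limma adjusted p = 0.0057). Sycn (syncollin, -1.16 ± 0.27, limma adjusted p = 0.016) and Cuzd1 (-0.91 ± 0.22, 0.016), both granule proteins, were called, and Gp2, the main glycoprotein of the granule membrane, was not (-0.70 ± 0.22, limma adjusted p = 0.054).

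The lowest adjusted p of the 37 genes belonged to Aqp8, a water channel of the acinar cell surface. It had values of 1.15, 1.76, 0.954, 0.507 and 0.713 in Ang II libraries and 2.09 to 5.89 with a median of 2.83 in sham libraries, from at least 7 reads in each of the 23 libraries. The groups did not overlap, and the log2 fold change was -1.30 ± 0.23 (limma adjusted p = 0.0020). Tmed6, of a family of cargo receptors between endoplasmic reticulum and Golgi, had values of 52.3, 77.0, 31.0, 47.5 and 33.7 in Ang II libraries, against 68.3 to 138 with a median of 116 in sham libraries. Tmed6 overlapped by replicate 2 alone and changed by -1.19 ± 0.23 on the log2 scale (limma adjusted p = 0.0057).

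None of the 3 transcription factor genes was called at 14 days by limma, although the unadjusted p was 0.012 for Rbpjl and 0.016 for Ptf1a. By edgeR none was called, and by DESeq2 Rbpjl and Ptf1a were. Ptf1a had values of 5.52, 5.16, 3.77, 2.81 and 2.74 in Ang II libraries and 3.50 to 17.1 with a median of 8.41 in sham libraries. Its groups overlapped, and its log2 fold change was -1.05 ± 0.40 (limma adjusted p = 0.11). Rbpjl gave -0.66 ± 0.24 (0.097) and Bhlha15 gave -0.51 ± 0.25 (0.22).

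Of the Reg genes, Reg1 and Reg3d were called lower at 14 days, and the 4 with the widest spread were not by limma. Reg1 had values of 2146, 3551, 1240, 1476 and 1718 in Ang II libraries, against 3059 to 7013 with a median of 4783 in sham libraries. Its log2 fold change was -1.30 ± 0.29 (limma adjusted p = 0.011), with infused replicate 2 inside the sham range. Reg3d had values of 36.9, 72.1, 24.9, 26.7 and 38.7 in Ang II libraries, against 55.2 to 212 with a median of 144 in sham libraries. It changed by -1.71 ± 0.40 (limma adjusted p = 0.017), again with replicate 2 inside the sham range.

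Reg3b had values of 23.03, 44.3, 19.5, 16.6 and 25.97 in Ang II libraries at 14 days, against 25.4 to 1132 with a median of 156 in sham libraries. The infused libraries of Reg3b were evenly low, and of the sham libraries replicate 4 was as low as they were. The log2 fold change, -2.66 ± 0.92, was not called (limma adjusted p = 0.083). Reg2 had values of 179, 253, 224, 127 and 369.9 in Ang II libraries, against 97.9 to 5763 with a median of 1773 in sham libraries, and gave -2.70 ± 0.88 (limma adjusted p = 0.069). Reg3a gave the largest log2 fold change of the 37 genes, -2.94 ± 1.09, with an adjusted p of 0.10 by limma. Reg3g gave -1.32 ± 0.80 (limma adjusted p = 0.31). On recovered reads Reg2, Reg3a and Reg3b were called lower by edgeR (adjusted p of 0.025, 0.032 and 0.042) and by DESeq2. In Reg2 and Reg3a the groups overlapped through sham replicate 4 alone, which lay below every infused library. Every other sham library lay above every infused one. The next lowest sham value was 1465 for Reg2 and 17.5 for Reg3a, against highest infused values of 369.9 and 6.00.

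**Figure D5:**
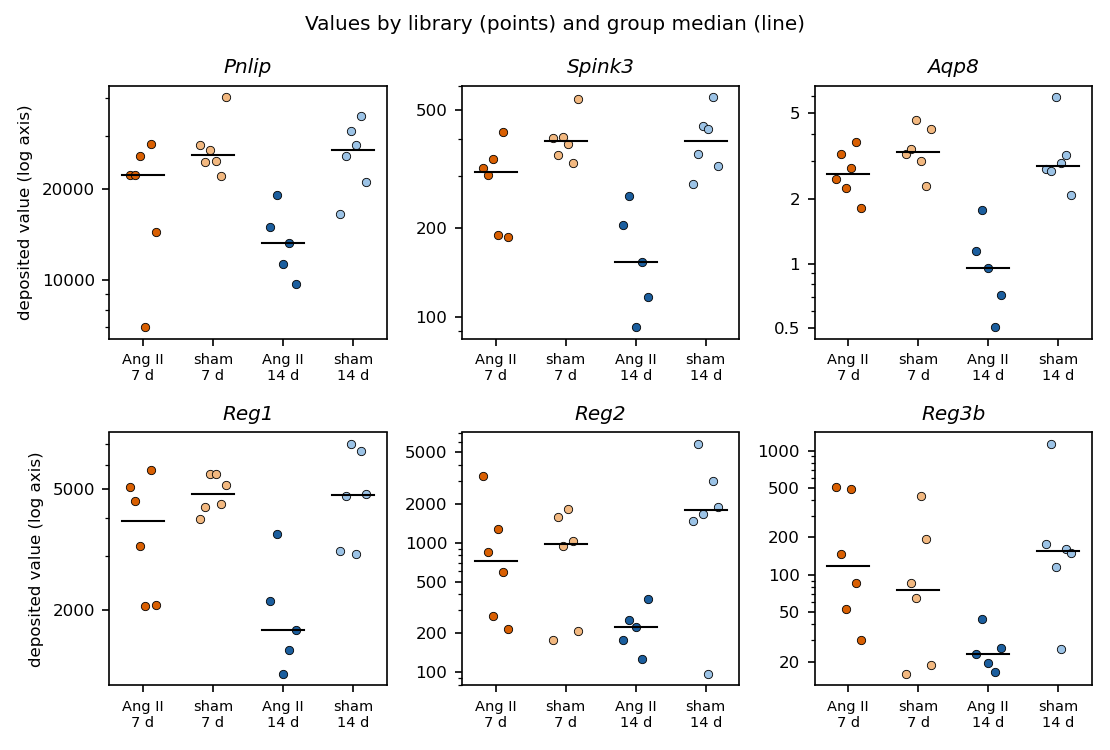
Deposited values of Pnlip, Spink3, Aqp8, Reg1, Reg2 and Reg3b by library (points) with the group median (line), on log axes with a range of their own in each panel. At 14 days the Ang II points of Spink3 (92.6 to 256) and Aqp8 (0.507 to 1.76) lie below all sham points, and for Reg3b they lie between 16.6 and 44.3.

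After 7 days of Ang II none of the 37 genes was called by limma, edgeR or DESeq2. By limma 9 of them had an unadjusted p under 0.05, and 1383 of all 14896 genes did. Over all genes limma called 0.819% at 7 days, 0.0671% lower and 0.752% higher. The log2 fold change was negative for 33 genes and positive for Reg2, Reg3a, Reg3b and Reg3g, with a median of -0.38, against 0.0017 over all genes; divided by the sum over all genes, 10 were positive. The lowest adjusted p was that of Sycn, 0.37 by limma. Sycn had values of 574 to 1674 with a median of 1389 in Ang II libraries and 1262 to 2884 with a median of 1711 in sham libraries, and its log2 fold change was -0.66 ± 0.26. Pnlip had values of 7014 to 28285 with a median of 22345 in Ang II libraries and 22053 to 40212 with a median of 25929 in sham libraries, and gave -0.58 ± 0.27 (limma adjusted p = 0.52). Infused replicates 4 and 6 were the low ones for Pnlip, and sham replicate 6 the high one. The groups of all 37 genes overlapped at 7 days. Over all tested genes every infused library lay below every sham library in 0.141% and above in 1.08%.

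Reg3b and Reg3g were spread widely in both groups at 7 days. Reg3b had values of 30.1 to 508 with a median of 117 in Ang II libraries and 16.1 to 429 with a median of 75.9 in sham libraries, and gave 0.85 ± 0.88 on the log2 scale (limma adjusted p = 0.87). Reg3g had values of 3.21 to 101 with a median of 5.07 in Ang II libraries and 0.6249 to 11.1 with a median of 4.44 in sham libraries. Its log2 fold change of 1.58 ± 0.76 was the highest of the 37 genes and was not called (limma adjusted p = 0.54). Low reads limit Reg3g, with 4 reads in sham replicate 6 and 7 in sham replicate 1. In mice numbered 27 the median log2 fold change of the 37 genes was -0.07, with 24 negative (3 infused, 4 sham), and in mice numbered 28 it was -0.74, with 32 negative (3 infused, 2 sham).

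The responses at 7 and 14 days were not shown to differ. The log2 fold change at 14 days was below that at 7 days for all 37 genes in the limma fit, with a median difference of -0.58, and none was called by limma, edgeR or DESeq2. By limma 12 of the 37 had an unadjusted p under 0.05, and 1396 of all 14896 genes did; limma called 0% of all genes. The lowest adjusted p was that of Aqp8, 0.48, for a difference of -0.99 ± 0.31, and the widest difference was that of Reg3a, -3.62 ± 1.504 (limma adjusted p = 0.51). Sham mice at 14 days also did not differ detectably from sham mice at 7 days. None of the 37 genes was called there by limma, edgeR or DESeq2 or had an unadjusted p under 0.05 by limma, which called 0% of all genes, and the median log2 fold change was -0.11. Both of these comparisons use libraries of the comparisons above.

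Among genes outside the 37, those that tracked Pnlip most closely included other genes of pancreatic secretion. Of the genes tested whose mean value was 10 or more, the 10 with the smallest SD of the log2 ratio to Pnlip over 23 libraries included Tff2 (0.14), Slc38a5 (0.17), 2210010C04Rik (0.18), Erp27 (0.22), Slc39a5 (0.25), Cabp2 (0.26), Try10 (0.26), Ggh (0.27) and Asns (0.28). Tff2 encodes a trefoil peptide, Slc38a5 a glutamine transporter and Erp27 a protein of the pancreatic endoplasmic reticulum. Asns makes asparagine and is not particular to the pancreas. The log2 fold change at 14 days was -1.11 for Tff2 and -0.55 for Asns, given as a description, since genes chosen for following Pnlip over these same libraries share its lower values at 14 days by that choice.

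Other genes of the acinar secretory route were counted from lists. Of 20 tested acinar secretory genes beyond the 37, 12 were called lower and 0 higher at 14 days, with a median log2 fold change of -0.85, and 0 in either direction at 7 days by limma, where 1 had an unadjusted p under 0.05. Examples at 14 days were Dmbt1, a secreted scavenger receptor protein (-1.02 ± 0.21, limma adjusted p = 0.0076), the kallikrein gene Klk1 (-0.96 ± 0.23, 0.016) and Nupr1, a stress-response gene (-1.17 ± 0.25, 0.011). Lists further upstream held 1 or 2 called genes each, beside 2.01% called lower over all genes. Of 12 other acinar transcription factor genes 1 was called lower at 14 days (Foxa3), of 18 stimulus-secretion genes 1 (Vamp8, of the granule membrane), and of 21 endoplasmic reticulum and Golgi genes 2 (Sec11c and Ssr4). The medians of these lists were -0.25, 0.02 and -0.35 on the log2 scale. At 14 days 6, 7 and 10 genes of these 3 lists had an unadjusted p under 0.05 in either direction, against 3663 of all 14896 genes. Many genes of these lists are also expressed in artery cells. At 7 days limma called 0 genes of these 3 lists, and 2, 1 and 3 of them had an unadjusted p under 0.05.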

How the data were processed

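Total RNA (500 ng per library) of mesenteric arteries was sequenced as stranded libraries, per the labels' protocols. The deposited values are a normalized expression signal per gene, made by the authors. The submitters' processing notes list edgeR 3.6.8, HTSeq 0.5.3p3 and STAR 2.3.1, with the genome build mm10. How the values were normalized and counted by strand is not given in the labels used. Each value above 0 was a whole multiple of its library's smallest value (100% within 0.001 read), so reads were recovered as value divided by that smallest value.

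The main test was limma 3.58.1 (trend, robust; R 4.3.3) on log2(value + 0.5), with 1 fit of 4 group means over 23 libraries, genes at 1 or more in at least 5 libraries, and Benjamini-Hochberg adjustment over 14896 genes. Fold changes on this scale understate those of low genes. The p-values weigh a group difference against the spread between animals within groups, moderated over all genes tested. Count tests with edgeR 4.0.16 and DESeq2 1.42.0 on recovered reads, other pseudocounts, filters, scalings and fits, and leaving out each library, were alternatives. Exon lengths came from GENCODE M21 and promoters from RefSeq. All 37 genes were tested in every comparison, and each is named for Ang II against sham at 14 days. Not all of them are named for the other comparisons, which give counts and medians over all 37. Of related lists, up to 4 genes by smallest p at 14 days and up to 8 called ones could be named. For likeness to Pnlip, the 10 other genes with the smallest SD of the log2 ratio were taken, of which 1 is not reported here. The genes and lists were chosen with earlier results of these data known. The limma fit was tested on simulated data.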

Additional observations from a re-analysis of the deposited data

Results flagged for a closer look

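In 148 sets of values of a gene in a group, and 4 sets of the share of reads taken by the 37 genes in a group, 19 sets, each of a gene, held a library whose gap to its nearest neighbour passed Dixon's 95% critical value; chance flags about 5% of such sets. Of these, 7 were the same library, sham replicate 6 at 7 days, standing above the other 5 sham libraries. It had 40212 for Pnlip, 1276 for Pnliprp2, 25157 for Cpb1, 17898 for Cela1, 545 for Spink3, 5839 for Zg16 and 5738 for Rnase1.

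Sham replicate 2 at 14 days stood above its group for Reg3a (417), Reg3b (1132) and Reg3g (30.7), and its Pnlip value did not stand apart. Ang II libraries at 7 days stood out for Reg2 in replicate 1 (3257) and for Reg3g in replicate 4 (101), and sham replicate 4 at 7 days for Reg3a (91.8).

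Among Ang II libraries at 14 days, replicate 2 stood high for Prss1 (8.59), Prss3 (49.5) and Amy2b (227), and replicate 5 stood low for Ctrc (13.8). Prss1 was also high in sham replicate 2 at 7 days (9.81). Aqp8 was high in sham replicate 3 at 14 days (5.89).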

How the results depend on the processing

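At 14 days 23 genes were called lower. The count was 15 when only the 2 groups compared were fitted, 13 with log2 total reads as a term, 0 with the animal number series as a term and 0 within series 26, a subset chosen after seeing the data. Over all genes limma called 85, 221, 2 and 0 lower, in that order. Both series settings rest on the same mice of series 26. Leaving out 1 library gave 6 to 27 of the 37, and 76 to 783 of all genes. Under the other settings the count for the 37 stayed within 1.5 times of 23, with 29 by edgeR, 32 by DESeq2 and 17 with no filter on low values. Dividing by the sum over all genes raised the median of all genes by 0.26 at 14 days and 0.23 at 7 days on the log2 scale, and the 37 genes then had a median of -0.71 at 14 days. The counts for 7 days, for the difference of the responses and for the sham groups stayed at 0 under every setting run. No paired analysis was possible because the labels give each mouse a number of its own and no replicate numbers that groups share.

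Of the single genes at 14 days only Prss1 turned its sign, to 0.66 with the series term and within series 26, 0.26 by edgeR and 0.27 by DESeq2, and -0.79 to 0.10 without single libraries. At 7 days 12 of 37 genes, none of them called, turned sign somewhere. Within series 27, chosen after seeing the data, the log2 fold change was 0.032 for Pnliprp1, 0.022 for Pnliprp2, 0.13 for Amy2b, 0.085 for Gp2, 0.022 for Rnase1, 0.18 for Try5, 0.074 for Bhlha15, 0.066 for Rbpjl and 0.033 for Ptf1a, and within series 28 it was 0.21 for Prss1. Divided by the sum over all genes it was 0.016 for Amy2b, 0.091 for Gp2, 0.17 for Try5, 0.063 for Cuzd1, 0.0090 for Rbpjl and 0.040 for Ptf1a, and with upper-quartile scaling 0.041 for Try5. Without single libraries at 7 days it ran from -0.38 to 0.40 for Prss1, -0.39 to 0.39 for Reg2, -0.14 to 0.042 for Try5 and -0.43 to 0.089 for Ptf1a. The cause of these turns was not tested. Low reads limit Prss1, with as few as 1 read in a library.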

Other observations

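Genes of the other pancreatic cell types were present in the same libraries. The summed value of 12 islet genes was 954 to 2412 in Ang II libraries at 14 days and 1445 to 5605 in sham libraries at 14 days. Of the 11 tested, limma called 0 at either time, with 5 at an unadjusted p under 0.05 at 14 days and 1 at 7 days, and their median log2 fold change was -0.77 at 14 days and -0.52 at 7 days. The lowest p among them at 14 days belonged to Gcg, which encodes glucagon (-0.86 ± 0.33, limma adjusted p = 0.11), and Ins1, which encodes insulin, gave -0.94 ± 0.39 (0.15). Of 10 duct genes 1 was called lower at 14 days, the secreted phosphoprotein gene Spp1 (-1.09 ± 0.27, limma adjusted p = 0.021). The median log2 fold change of the duct genes was -0.42 at 14 days, with 4 at an unadjusted p under 0.05, and 0.14 at 7 days, with 0 called by limma and 0 at an unadjusted p under 0.05. The part of these cells in the results for acinar genes was not tested.

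Markers of gut epithelium were low, with sums of 6.04 to 10.1 in Ang II libraries at 14 days and 8.05 to 36.7 in sham libraries at 14 days, and with Cdx1 at 0 in every library. Their 4 highest sums were 60.0 in Ang II replicate 6 at 7 days, 36.7 in sham replicate 4 at 14 days, 19.2 in sham replicate 5 at 7 days and 13.8 in Ang II replicate 4 at 7 days. Reg3g in those libraries was 4.02, 13.3, 11.1 and 101 in that order, of which 13.3 was the second highest of its group and 11.1 and 101 were the highest of theirs. Reg3g was also high, at 39.3 in Ang II replicate 1 at 7 days and 30.7 in sham replicate 2 at 14 days. Of all Reg3g values only 101 lay above both. The gut marker sums of these libraries, 9.92 and 9.99 in that order, lay below the 4 highest sums. The part of gut cells in the Reg3g values was not tested. The 2 tested genes, Vil1 and Lgals4, were not called at either time by limma, and neither had an unadjusted p under 0.05. Of the liver markers the transthyretin gene Ttr, which islet cells also express, was called lower at 14 days (-1.10 ± 0.26, limma adjusted p = 0.017), 1 of 3 tested. Of the tested markers of fat (7), mesothelium (7), endothelium (6), lymphocytes (4) and red cells (5), 0 were called by limma at either time, with 1, 1, 2, 0 and 2 at an unadjusted p under 0.05 at 14 days in that order. Of 6 smooth muscle markers Des was called higher at 14 days (0.55 ± 0.16, limma adjusted p = 0.049).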
